A study of Mus musculus with 70 samples.

Results

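The Htr2c cluster is a group of miRNAs that lie inside introns of Htr2c, the gene of the serotonin 5-HT2C receptor. Its members are 10 of the 1882 distinct features of the count table, taken by name as both arms of 5 hairpins: mmu-miR-764-5p and mmu-miR-764-3p, mmu-miR-1912-5p and mmu-miR-1912-3p, mmu-miR-1264-5p and mmu-miR-1264-3p, mmu-miR-1298-5p and mmu-miR-1298-3p, and mmu-miR-448-5p and mmu-miR-448-3p (the species prefix is dropped below). They were chosen on their host gene and on measured counts that were lower in microglia than in the remaining brain cells, so that difference is described here without a test. Age, sex, the balance of the arms and the variation between mice were not used to choose them.

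A miRNA hairpin in an intron on the strand of its host is usually released from the host's own transcript, and each hairpin can give a mature strand from either arm. Htr2c is best known in the epithelium of the choroid plexus, which makes cerebrospinal fluid, and is also transcribed in neurons. Microglia, the resident macrophages of the brain, derive from a separate lineage. Among other miRNAs used as landmarks below, miR-204 and miR-211 are abundant in choroid plexus, and the miR-34b/c and miR-449 families are known from multiciliated cells, including those of the ventricles.

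In the GRCm38 annotation Htr2c spans chrX:146962513-147197277 on the plus strand, over 235 kb, and the 5 hairpins are spread over 156 kb of it on the same strand. Relative to the 6-exon transcript ENSMUST00000036303.8, intron 2 holds Mir764 (chrX:147002259-147002366), Mir1912 (chrX:147009441-147009527), Mir1264 (chrX:147010601-147010686) and Mir1298 (chrX:147064905-147065002). Mir448 (chrX:147158210-147158321) lies in intron 4, 93.2 kb beyond Mir1298. None of the hairpins overlapped an exon of any of the 7 annotated Htr2c transcripts. Mir1912 and Mir1264 are the closest neighbours, 1.07 kb apart, and Mir1298 stands 54.2 kb further on.

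**Figure D1:**
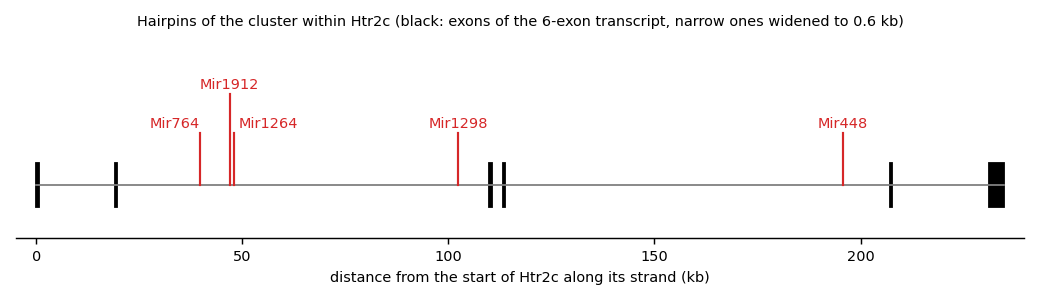
Map of Htr2c with the distance from its start in kb on the horizontal axis, the exons of the 6-exon transcript in black and the hairpins in red. The first 4 hairpins share intron 2, and Mir448 lies alone in intron 4.

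Mature sequences of 8 of the 10 members were found in RefSeq (GRCm38.p6), all on the plus strand of chromosome X. They are given 5′ to 3′ with the seed, bases 2 to 8, which pairs with targets, in capitals. The first 3 pairs of strands are those of the hairpins whose balance of arms moved with age.
miR-1298-5p: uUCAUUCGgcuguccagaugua
miR-1298-3p: cAUCUGGGcaacugauugaacu
miR-448-3p: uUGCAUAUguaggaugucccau
miR-448-5p: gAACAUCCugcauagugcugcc
miR-764-3p: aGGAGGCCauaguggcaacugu
miR-764-5p: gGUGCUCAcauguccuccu
miR-1264-3p: cAAAUCUUauuugagcaccugu
miR-1912-3p: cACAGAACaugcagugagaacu
The most abundant strand, miR-1298-5p, sits at chrX:147064918-147064939, and miR-448-3p at chrX:147158281-147158302.

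No seed was shared among the members: the 8 sequences carried 8 different seeds. Over bases 2 to 7, miR-448-3p matched the neuronal miR-153-3p, whose mature strand is given here for comparison with the match and base 8 in capitals.
miR-153-3p: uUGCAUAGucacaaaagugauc
In the CD45- cells described next, the medians of miR-153-3p were 3746 CPM (the member's count scaled to its library's total) at P6, 2909 at P15 and 4194 at 8 weeks, against 83.2, 57.4 and 17.0 CPM for miR-448-3p. The other miRNAs of the RefSeq table that shared bases 2 to 7 with a member, miR-12187-3p, miR-6335, miR-499-3p and miR-7062-5p, had medians of at most 2.75 CPM in every group.

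The libraries came from whole brains of wild-type C57BL/6 mice of both sexes, taken 6 days (P6), 15 days (P15) or 8 weeks (8W) after birth, from which meninges and blood clots had been removed. No treatment was given. Each dissociated brain gave a CD45+ fraction captured on antibody-coated dishes, called microglia here, and the CD45- cells left over, called bulk cells, with 1 small RNA library from each. Analysed were 68 libraries of 34 mice: 10 at P6 (4 female, 6 male), 12 at P15 and 12 at 8W, with 6 of each sex at the later ages. A CD45 selection also takes other leukocytes, and bulk cells mix every other cell type, so that in these samples fewer cells of a type and less RNA per cell cannot be told apart.

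Library totals ranged from 1678034 to 8747394 counts, and 3 counts, used as the floor, corresponded to 0.343 to 1.79 CPM. Floors cover counting error only. The labels were checked with lists of marker miRNAs. The summed level of 4 myeloid markers (miR-142a and miR-223, both arms) had medians of 14904, 24995 and 17308 CPM in microglia at P6, P15 and 8W, against 127, 326 and 219 in bulk cells. miRNAs used as neuronal markers were also counted in microglial libraries, where the 7 summed to medians of 27956, 26675 and 24282 CPM. miR-124-3p alone had medians of 22975, 19638 and 18255 CPM there, and the cells these counts came from were not tested. Erythroid markers were higher in the microglial fraction, with medians of 15182, 45376 and 23913 CPM against 1968, 5069 and 4401.

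Most of the cluster's counts were in bulk cells and came from 1 strand. Together the 10 members summed to 188567 counts in the 34 bulk libraries and to 9078 in the 34 microglial libraries. In bulk cells miR-1298-5p made up 88.3% of the cluster's counts at P6, 86.8% at P15 and 79.4% at 8W, followed at P6 by miR-448-3p with 5.88% and miR-1264-5p with 2.20%. The remaining members each contributed under 1% at P6.

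Levels of miR-1298-5p in bulk cells ran from 447 to 1952 CPM at P6 (median 1187), from 332 to 1868 at P15 (median 950) and from 156 to 547 at 8W (median 289). In microglia they ran from 24.6 to 278 CPM (median 57.4), 11.7 to 98.6 (median 33.3) and 6.24 to 105 (median 21.8). Its minor partner miR-1298-3p had bulk medians of 3.68, 5.12 and 4.37 CPM. The major strand was the highest member in both fractions at every age, and at 8W 10 of the 12 bulk libraries lay below the lowest bulk library of P6.

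miR-448-3p, the major strand of mir-448 at P6, ranged in bulk cells from 23.9 to 136 CPM at P6 (median 83.2), from 15.1 to 145 at P15 (median 57.4) and from 7.92 to 29.1 at 8W (median 17.0). The opposite strand, miR-448-5p, had medians of 12.3, 12.2 and 9.28 CPM. Medians of the first were lower at each later age. The ranges of the second overlapped, with 4 of 10 P6 libraries and 4 of 12 P15 libraries above the highest of 8W.

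Between these and the rarest members stood both arms of mir-1264 and mir-764. miR-1264-5p had bulk medians of 27.5, 37.1 and 16.9 CPM, and miR-1264-3p of 6.85, 6.21 and 4.66. For miR-764-3p the bulk libraries ran from 3.88 to 22.6 CPM at P6 (median 13.6), 9.39 to 28.9 at P15 (median 17.2) and 14.4 to 30.1 at 8W (median 22.4). miR-764-5p had medians of 12.6, 15.2 and 6.99 CPM. Neighbours in the order of levels overlapped: at P6 the ranges of miR-764-3p, miR-764-5p and miR-448-5p (4.18 to 17.0 CPM) all overlapped.

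The mir-1912 strands were near the limit of detection. miR-1912-5p had 186 counts in all over the 10 P6 bulk libraries, from 0 to 42 per library, 59 over the 12 of P15 and 12 over the 12 of 8W, where 11 libraries were at or below 3 counts. miR-1912-3p totalled 34, 28 and 15 counts in bulk cells. In microglia miR-1912-5p totalled 10 counts and miR-1912-3p 1 count over all 34 libraries. miR-1912-3p did not pass the filter on low values (1 CPM in 5 libraries) and is given by counts only. miR-1912-5p passed it only through bulk libraries of P6 and P15: its highest level was 0.945 CPM in 8W bulk cells and 0.813 CPM in microglia. Its lower level at 8W was therefore favoured by how it entered the fit, and its fitted changes are given as descriptions.

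**Figure D2:**
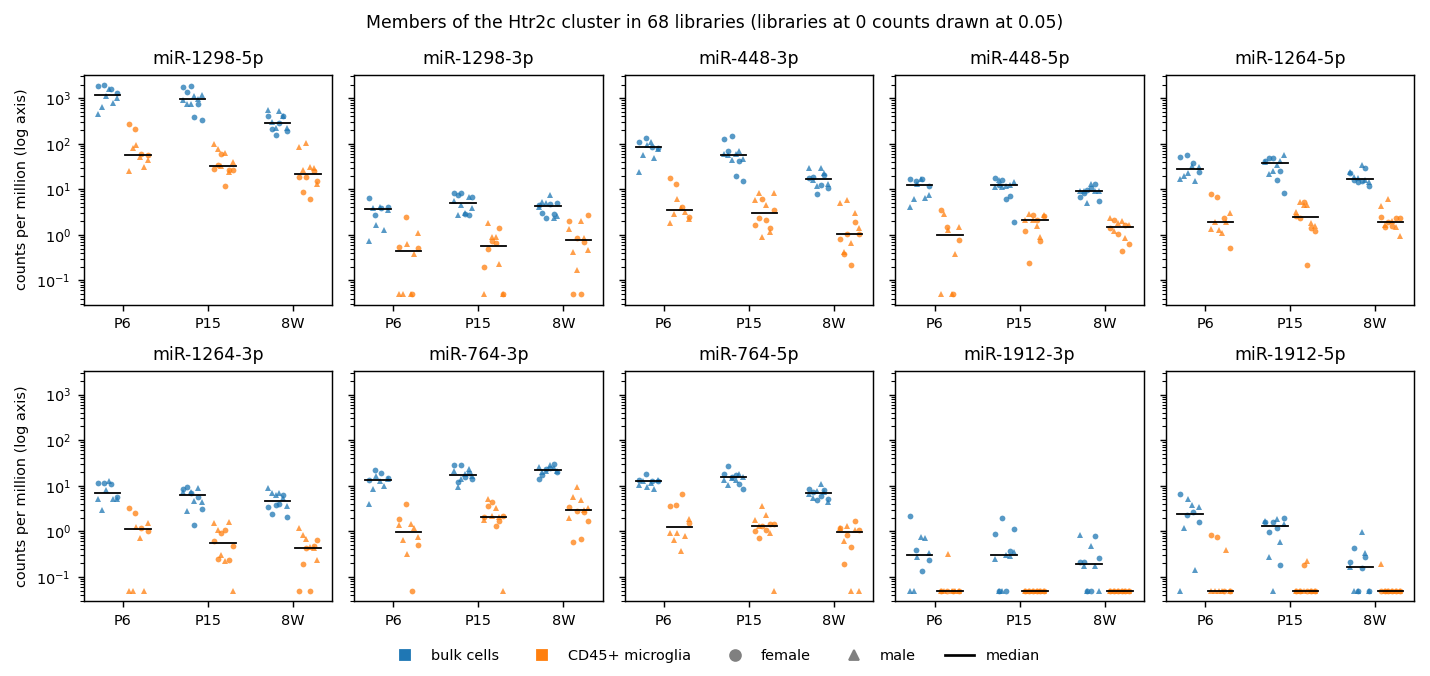
CPM on a log axis for each member in each of 68 libraries, by age and fraction; circles are females, triangles males, black bars medians, and libraries without a count are drawn at 0.05. miR-1298-5p lies above all other members, and microglial medians lie below bulk medians of the same age for each member.

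The fraction difference, which was known when the members were chosen, is a description. For miR-1298-5p the microglial level was lower than the bulk level in 34 of 34 mice, at a median of 5.53% of it (range 1.57% to 46.4%). The same held in 34 of 34 mice for miR-448-3p (median 6.60%) and miR-1264-5p (median 9.25%), and in 33 of 34 for miR-448-5p (median 13.2%). Without overlap between the fractions' ranges within an age were 5 of the 10 members at P6, 6 at P15 and 7 at 8W, all lower in microglia, beside 10.2%, 16.6% and 21.5% of the 1072 features tested that lay lower without overlap. Nothing is read from these counts, as the members were chosen for this difference.

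Fitted over all ages, microglia minus bulk was -4.01 ± 0.18 (log2, SE) for miR-1298-5p, the most negative of the 9 members in the fit, and -2.04 ± 0.29 for miR-1912-5p, the least, with a median of -3.15 over members and 0.29 over all 1072 features tested. For miR-1298-3p, the other arm of the first, it was -2.69 ± 0.25. The estimates of all 9 members were negative, as the choice of members fixed. As a background, 21.8% of all features were called lower in microglia against a 2-fold threshold at a false discovery rate (FDR) of 0.05.

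Per mouse, the cluster's summed level in microglia was a median of 5.40% of its bulk level at P6 (range 3.198% to 15.03%), 4.20% at P15 (1.83% to 11.9%) and 7.60% at 8W (2.68% to 43.4%). Over the same mice the 7 neuronal markers stood at medians of 34.3%, 24.7% and 15.5%, and the 10 choroid plexus and multiciliated markers at 21.0%, 25.6% and 44.0%. The 3 oligodendrocyte markers stood at 39.8%, 8.55% and 6.74%. At P6 the highest share of the cluster (15.03%) was below the lowest of the neuronal list (24.2%), and the choroid plexus list ranged from 12.9% to 25.6%. At P15 the cluster reached 11.9% and the neuronal list began at 11.7%, and at 8W the cluster's range held that of the neuronal list (9.65% to 31.8%). The part of other brain cells' RNA in the microglial levels of the members was not tested.

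The first tested comparison asked whether the members changed between P6 and adulthood in the bulk cells. The 5p strand of mir-1298 and the 3p strand of mir-448 fell, and apart from miR-1912-5p the others did not pass the test. miR-1298-5p fell by 1.69 ± 0.28 on the log2 scale (SE; 10 against 12 mice; limma-voom with TREAT against a 2-fold change, adjusted p = 0.0311), its median level dropping 4.11-fold in CPM. miR-448-3p fell by 1.93 ± 0.30 (adjusted p = 0.00607), a 4.90-fold drop of the median. For miR-1912-5p, whose entry into the fit favoured a fall, the estimate was -2.58 ± 0.48. Leaving it aside, 2 of the other 8 members in the fit were called lower and 0 higher, where 12.4% of all features were called lower and 13.2% higher.

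The 6 remaining members differed in sign. miR-764-3p was higher at 8W by 1.07 ± 0.21 without passing the 2-fold threshold (adjusted p = 0.799, limma TREAT), and passed without a threshold (adjusted p = 1.18e-05). miR-1298-3p had an estimate of 0.73 ± 0.35, miR-448-5p of 0.00 ± 0.25, and miR-1264-5p and miR-1264-3p of -0.36 ± 0.23 and -0.34 ± 0.28. For miR-764-5p the estimate was -0.55 ± 0.21. The median over the members was -0.36 and over all features 0.32. With miR-1912-5p left aside, 4 of the 8 other members were called without a fold change threshold, namely miR-1298-5p, miR-448-3p, miR-764-3p and miR-764-5p, where 66.2% of all features were. edgeR and DESeq2 each called these 4, with 61.4% and 61.1% of all features called. Ranges of P6 and 8W overlapped for each of the 10 members.

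The call of miR-1298-5p was close to its limit. It was lost when any 1 of 7 mice was left out (8W female 3, 8W female 6, 8W male 6, P6 female 2, P6 female 3, P6 male 3 or P6 male 4), with estimates of -1.55 to -1.64 and adjusted p of 0.0546 to 0.081 by limma TREAT. In males alone 0 members were called where 22.5% of all features were, with -1.003 for miR-1298-5p (limma TREAT, adjusted p = 0.98) and -1.35 for miR-448-3p (adjusted p = 0.424), whereas both were called in females alone, with -2.38 and -2.53, where 22.3% of all features were. The difference between the sexes in this change is tested further on.

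The steps between ages were smaller. From P15 to 8W miR-1298-5p changed by -1.12 ± 0.27 and miR-448-3p by -1.20 ± 0.30, after -0.57 ± 0.27 and -0.74 ± 0.26 from P6 to P15. Against the 2-fold threshold 0 of 9 members were called in either step by limma TREAT, and 0 had an unadjusted p under 0.05, while 11% and 3.54% of all features were called. Without a threshold the same 4 of the 8 members other than miR-1912-5p passed from P15 to 8W, as by edgeR and by DESeq2, where 50.7%, 49.6% and 48.8% of all features passed. From P6 to P15 2 passed, miR-448-3p and miR-1264-3p, where 38.8% of all features did. In that step 0 of the 8 passed by edgeR and 0 by DESeq2, which called 35.6% and 34.2% of all features.

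In microglia the same ages were compared at far lower counts, with wider errors. miR-1298-5p had 55 to 1024 counts per library at P6 and 28 to 627 at 8W, and its estimate was -1.27 ± 0.40. The estimate was -1.47 ± 0.68 for miR-448-3p and 1.78 ± 0.49 for miR-764-3p. Against the 2-fold threshold 0 of 9 members were called (limma TREAT, lowest adjusted p 0.266, for miR-764-3p), 0 had an unadjusted p under 0.05, and 16.6% of all features were called. Without a threshold 3 were called, miR-764-3p higher and miR-1298-5p and miR-764-5p lower, where 53.9% of all features were. edgeR and DESeq2 each called 3 members, with 54.4% and 56.4% of all features called. Theirs were miR-1298-5p, miR-448-3p and miR-764-3p, so miR-764-5p was not called by them. Markers of other cells differed between the same libraries (limma TREAT). Of the 10 choroid plexus and multiciliated markers 2 rose, miR-204-5p by 2.505 ± 0.254 (adjusted p = 9.76e-07) and miR-204-3p by 2.93 ± 0.34, and the 3 miR-449 members fell, miR-449a-5p with -5.61 ± 0.33. In 8W microglia miR-449b was at 0 CPM throughout and miR-449c-5p reached at most 0.891 CPM. Neither met the filter's 1 CPM there, so that their falls were favoured by the filter. Of the 3 oligodendrocyte markers 2 rose, miR-338-3p by 1.85 ± 0.13 and miR-219a-2-3p by 1.63 ± 0.22, and of the neuronal, myeloid and erythroid markers 0 were called. Their part in the members' estimates was not tested.

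The shorter steps in microglia gave 0 calls each against the threshold, and 0 at an unadjusted p under 0.05 (limma TREAT), where 2.89% (P6 to P15) and 4.57% (P15 to 8W) of all features were called. From P6 to P15 1 member, miR-1298-5p, was called without a threshold, where 34.1% of all features were. edgeR and DESeq2 called 2 each in that step, with 33.7% and 35.3% of all features called. From P15 to 8W 0 members were called without a threshold or by edgeR, where 37.2% and 39.1% of all features were. DESeq2 called 1, miR-448-3p, and 42.1% of all features.

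**Figure D3:**
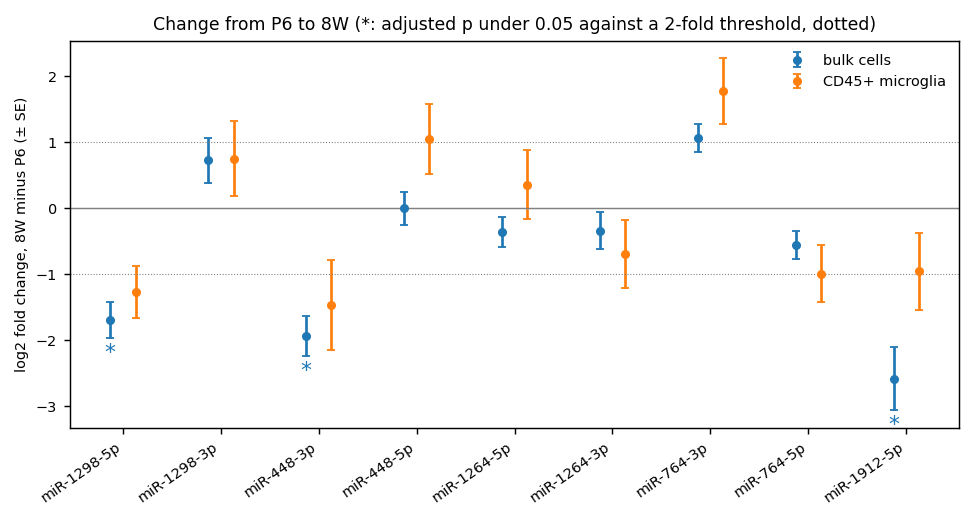
Log2 fold change from P6 to 8W with its standard error for the 9 members tested, in bulk cells (blue) and microglia (orange); stars mark adjusted p under 0.05 against the 2-fold threshold, drawn dotted. Stars stand only under miR-1298-5p, miR-448-3p and miR-1912-5p in bulk cells, the last of which passed the filter only through bulk libraries of P6 and P15, and most microglial estimates have the sign of the bulk estimate with wider errors.

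Whether a change with age differed between the fractions was tested directly. From P6 to 8W the microglial minus the bulk change was 0.42 for miR-1298-5p (95% interval -0.49 to 1.33), 0.47 for miR-448-3p (-0.94 to 1.88) and 0.71 for miR-764-3p (-0.32 to 1.73). Each of these intervals includes 0. For this interval of ages 0 of 9 members were called by limma TREAT, by edgeR or by DESeq2, against 14.6%, 44.4% and 46% of all features, and without a threshold 1 was called, miR-1912-5p, which no microglial library held at the filter's 1 CPM, against 53.6%. From P6 to P15 and from P15 to 8W 0 members were called by limma TREAT, without a threshold or by edgeR. In the first of these steps 1.59%, 25.1% and 20% of all features were called by these rules, and in the second 3.36%, 36.2% and 31.5%. In each of these steps 1 member had an unadjusted p under 0.05 without a threshold, as did 38.3% and 43.8% of all features. It was miR-448-5p in the first step and miR-1912-5p in the second. The latter was in the fit only through bulk libraries of P6 and P15, which favours such a difference. DESeq2 called 0 and 1 (miR-1298-5p), beside 22.8% and 34.2% of the features it tested. The edgeR and DESeq2 fits held no term for the mouse, so they took the 2 libraries of a brain as separate.

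The balance of the 2 arms of a hairpin changed with age, and in a different direction for different hairpins. A ratio within a library needs no scaling between libraries. For mir-1298 the bulk counts of the 5p strand were 382 times those of the 3p strand at P6, 197 times at P15 and 78.5 times at 8W. Mean log2 ratios (1 added to each count) were 8.59 ± 0.63 (SD, n = 10) at P6 and 6.18 ± 0.65 (n = 12) at 8W, a difference of -2.41 (two-sided permutation test, p = 2e-05, the smallest that these permutations can give; adjusted p = 2.7e-05 over 4 hairpins). The ranges, 7.33 to 9.39 and 5.14 to 7.30, did not overlap.

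In mir-448 it is the 3p strand that dominates, and it lost ground. Its bulk counts were 7.23 times those of the 5p strand at P6, 5.86 times at P15 and 1.98 times at 8W. The mean log2 ratio of 5p to 3p moved from -2.84 ± 0.32 to -0.89 ± 0.55, a difference of 1.95 (permutation test, p = 2e-05, adjusted p = 2.7e-05). The ranges did not overlap, with -3.35 to -2.32 at P6 and -1.68 to 0.30 at 8W. In both hairpins the strand that was dominant at P6 had lost part of its lead by 8W.

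For mir-764 the arms were level at first and parted later. At P6 3p counts were 1.10 times the 5p counts, at P15 1.25 times and at 8W 3.24 times. The mean log2 ratio went from -0.03 ± 0.61 to -1.69 ± 0.44, a difference of -1.66 (permutation test, p = 2e-05, adjusted p = 2.7e-05). The ranges overlapped by a narrow margin, from -0.80 to 1.39 at P6 and from -2.24 to -0.74 at 8W.

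For mir-1264 P6 and 8W did not differ beyond the spread between mice. Its log2 ratio was 1.98 ± 0.47 at P6 and 1.99 ± 0.47 at 8W, a difference of 0.01 (permutation test, p = 0.955, adjusted p = 0.955). At P15 it was 2.49 ± 0.65. The counts of mir-1912 were too low for the test, at 186 counts of 5p and 34 of 3p at P6 and 12 and 15 at 8W.

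The 3 moves had the same direction in each sex. In females (4 against 6 mice) the differences were -2.59 for mir-1298, 2.08 for mir-448 and -1.37 for mir-764, and in males (6 against 6) they were -2.24, 1.79 and -1.86. Microglial libraries held few counts of the minor strands and were not tested, but their summed counts are given: 5p over 3p of mir-1298 was 157 at P6 and 35.8 at 8W, 3p over 5p of mir-448 was 4.85 and 1.32, and 3p over 5p of mir-764 was 0.67 and 4.23. For mir-1264, 5p over 3p was 2.42 at P6, 4.06 at P15 and 5.33 at 8W in microglia, against 3.99, 5.81 and 3.81 in bulk cells.

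**Figure D4:**
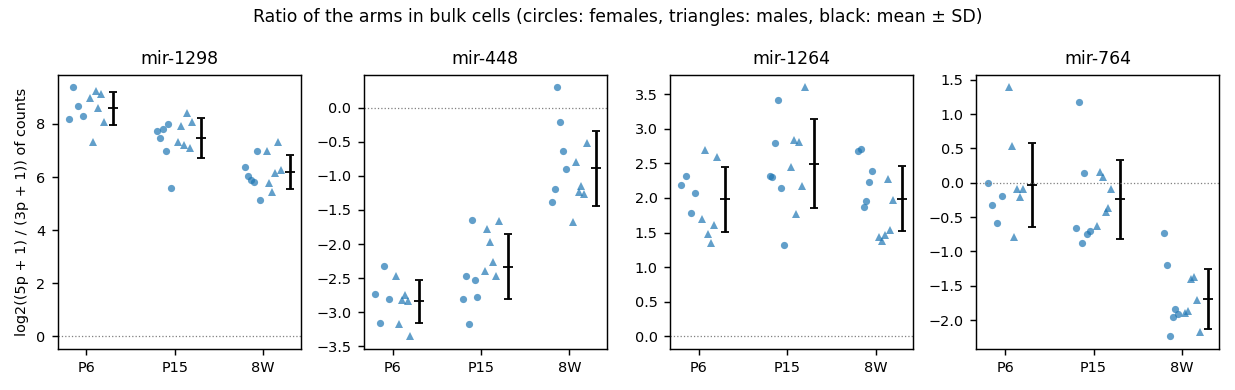
Log2 ratio of 5p to 3p counts, 1 added to each, in each bulk library for 4 hairpins at 3 ages; circles are females, triangles males, and black marks give the mean and SD. mir-1298 and mir-764 go down with age, mir-448 goes up with no overlap between P6 and 8W, and mir-1264 has like means at P6 and 8W and a higher one at P15.

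Sex was examined at each age in each fraction. Against the 2-fold threshold 0 of 9 members were called in any of the 6 contrasts by limma TREAT, and 0 without a threshold, by edgeR or by DESeq2. The background was 0% of all features called in each contrast with the threshold. In P15 bulk cells 1.77% were called without a threshold, 1.96% by edgeR and 2.29% by DESeq2, and in each of the 5 other contrasts these rules called 0% or 0.187%. At P6, however, every estimate had one sign: 9 of 9 members were lower in males in bulk cells and 9 of 9 in microglia, as were 64.6% and 48.2% of all features. Counts of members here and below are not counts of separate observations. The members varied together between mice, as given further on, and both fractions came from the same mice.

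In bulk cells the 4 P6 females had 1878, 1952, 1632 and 1284 CPM of miR-1298-5p, and the 6 males ran from 447 to 1629 (median 895). The male minus female estimate was -1.01 ± 0.39 (limma, adjusted p = 1 with and 0.261 without the threshold). In microglia the 4 females had 278, 208, 58.4 and 56.3 CPM and the males 24.6 to 92.5 (median 47.9), an estimate of -1.42 ± 0.54 (adjusted p = 1 and 0.435). The ranges of the sexes overlapped in both fractions. Without a threshold, unadjusted p were under 0.05 for 7 of 9 members in P6 bulk cells, where 9.98% of all features were, and the members' median was -0.91.

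At the later ages the signs were mixed. At P15 7 of 9 bulk estimates were negative, beside 58.2% of all features, with -0.12 ± 0.37 for miR-1298-5p. In P15 microglia 4 of 9 were negative, beside 54.9%. At 8W 2 of 9 bulk estimates were negative, beside 51.6%, with 0.43 ± 0.39 for miR-1298-5p. Whether the sexes differed otherwise at P15 than at P6 was not tested. In microglia at 8W 8 of 9 members were higher in males, 2 of them at an unadjusted p under 0.05 without a threshold where 4.85% of all features were, and the estimate for miR-1298-5p was 1.40 ± 0.58. After these values had been seen, the difference between the sexes in the change from P6 to 8W was tested. In bulk cells it was 1.44 ± 0.55 for miR-1298-5p (males minus females; limma, adjusted p = 1 with the threshold), and 0 of 9 members were called by limma TREAT, without a threshold, by edgeR or by DESeq2, with 0% of all features called by each of these. Without a threshold 5 members had an unadjusted p under 0.05, as did 6.53% of all features.

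In microglia that difference was 2.83 ± 0.80 for miR-1298-5p, and fitted alone the change was -2.66 in females and 0.21 in males. limma TREAT called 0 of 9 members (adjusted p = 1; 2 with an unadjusted p under 0.05), where 0% of all features were called, and limma without a threshold called 0 (adjusted p = 0.441), also with 0% of all features called. edgeR (adjusted p = 0.0469) and DESeq2 (adjusted p = 0.00097) called this member, which was the 1 feature called of all (0.0933%). The values rest on 4 females at P6, of which 2 held 1024 and 844 counts and the other two 98 and 223.

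Members varied together from mouse to mouse. Over the bulk libraries of 1 age, the 3 members with the most bulk counts over all ages were compared in pairs, 9 correlations in all, with TMM-normalised log2 CPM. miR-1298-5p and miR-448-3p had Pearson's r = 0.93 at P6 (n = 10), 0.97 at P15 (n = 12) and 0.91 at 8W (n = 12), with permutation p of 3e-05, 3e-05 and 1e-04 and adjusted p of 9e-05, 9e-05 and 0.00018. Their Spearman's rho was 0.93, 0.85 and 0.88 (permutation p of 0.00029, 0.00129 and 0.00043, adjusted p of 0.000846, 0.00166 and 0.000846). Without the 2 mice farthest from the median of miR-1298-5p, r was 0.89, 0.93 and 0.83.

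For miR-1298-5p and miR-1264-5p, r was 0.86, 0.93 and 0.84 at the 3 ages (permutation test, adjusted p of 0.00198, 9e-05 and 0.00096), and 0.87, 0.89 and 0.84 without the 2 farthest mice. For miR-448-3p and miR-1264-5p it was 0.79, 0.87 and 0.77 (permutation test, adjusted p of 0.0047, 0.000157 and 0.00406), and 0.79, 0.75 and 0.76 without them. The adjusted p of all 9 Spearman correlations were at most 0.00436. Within 1 sex and age, over the 5 groups of 6 mice, r ran from 0.39 to 0.995 for the first pair, 0.75 to 0.97 for the second and 0.22 to 0.95 for the third. Libraries share their scaling between members, and mice differed in how much of the cluster their bulk cells held, by 4.33 times at P6, 5.44 times at P15 and 2.98 times at 8W from lowest to highest.

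The features most like miR-1298-5p outside the cluster were then listed, with the age means removed, over the 34 bulk libraries. The 5 highest were miR-34c-5p (r = 0.88), miR-34b-5p (0.86), miR-204-5p (0.80), miR-34b-3p (0.64) and miR-17-3p (0.61), where the median over 1071 features was 0.10 (quartiles -0.07 and 0.25). The other 8 members had r of 0.51 to 0.94. All 10 choroid plexus and multiciliated markers had positive values, from 0.29 to 0.88, including miR-211-5p at 0.60. The 7 neuronal markers ran from -0.16 to 0.32 and the 3 oligodendrocyte markers from -0.07 to -0.01. The 3 erythroid markers ran from 0.40 to 0.48 and the 4 myeloid markers from -0.09 to 0.44. The ranges of the neuronal, erythroid and myeloid lists overlapped that of the choroid plexus and multiciliated list. These correlations are descriptions, as the libraries share depth and scaling.

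The landmarks were then set beside the members by age. From P6 to 8W in bulk cells the estimates were 0.27 ± 0.20 for miR-34c-5p, 0.12 ± 0.18 for miR-34b-5p and 0.29 ± 0.23 for miR-204-5p. Beside them stood -1.69 ± 0.28 for miR-1298-5p and -1.93 ± 0.30 for miR-448-3p. As given above, the estimates were 0.00 to -0.55 for miR-448-5p, both arms of mir-1264 and miR-764-5p. Above the landmarks lay miR-1298-3p at 0.73 ± 0.35 and miR-764-3p at 1.07 ± 0.21. The summed level of the 10 choroid plexus and multiciliated markers was 8196 to 25656 CPM at P6, 7076 to 19533 at P15 and 8156 to 15466 at 8W, with 0 of them at 0 in every bulk library. Of the list, 0 rose and 3 fell (limma TREAT), namely the miR-449 members, with miR-449a-5p at -6.20 ± 0.28 (adjusted p = 9.57e-26). One of the 3, miR-449b, reached at most 0.473 CPM in 8W bulk cells, so that its fall too was favoured by the filter. Of the 7 neuronal markers 1 rose, miR-138-5p at 1.42 ± 0.13 (adjusted p = 0.0045), and 0 fell. All 3 oligodendrocyte markers rose, with a median of 4.14 and the highest estimate for miR-219a-5p, 4.34 ± 0.18 (adjusted p = 1.4e-26). Of the 3 erythroid markers 1 rose, miR-451a at 1.58 ± 0.24 (adjusted p = 0.0409), and of the 4 myeloid markers 0 were called, with a median of 1.199. The part of cell composition in the changes of the members was not tested.

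In microglial libraries, a comparison added after the bulk values had been seen, the largest values with miR-1298-5p outside the cluster were miR-34b-5p (r = 0.72), miR-338-3p (0.70), miR-325-3p (0.66), miR-34c-5p (0.65) and miR-449c-5p (0.64). The 4 myeloid markers ran from -0.41 to -0.12, the 3 erythroid markers from -0.22 to -0.15, the 7 neuronal markers from 0.24 to 0.54, the 3 oligodendrocyte markers from 0.51 to 0.70 and the 10 choroid plexus and multiciliated markers from 0.29 to 0.72. The last of these ranges overlapped those of neurons and oligodendrocytes. The median over 1071 features was 3.61e-05.

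**Figure D5:**
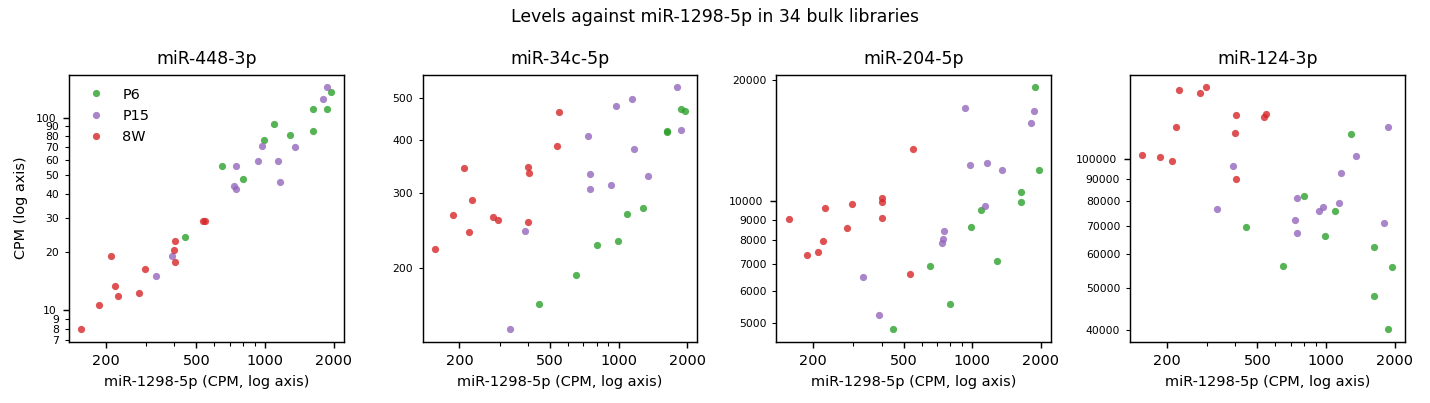
CPM of miR-448-3p, miR-34c-5p, miR-204-5p and miR-124-3p against miR-1298-5p in 34 bulk libraries, both axes logarithmic, coloured by age. miR-448-3p lies along 1 line through all ages, and miR-124-3p follows no such line. miR-34c-5p and miR-204-5p rise with miR-1298-5p within an age, miR-204-5p less clearly at 8W, and the 8W libraries are shifted to the left. At 8W male 4 has the lowest miR-204-5p (6588 CPM) beside 534 CPM of miR-1298-5p.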

How the data were processed

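Small RNA was sequenced from microglia and bulk cells of the same brains. The values deposited are raw counts of reads per miRNA, for which the authors trimmed reads with fastp 0.20.0 and used miRDeep2 to match them to miRBase and map the rest to GRCm38 (mm10). Of 2029 entries, the entry with the largest total was kept for each name, and candidates with identical counts were dropped; every member has 1 entry. Members and gene lists were chosen with earlier results of these data known.

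Both libraries of P6 female mouse 6, which the study's source data do not list, were left out. The 1072 features that reached 1 CPM in 5 or more libraries were scaled by TMM (edgeR 4.0.16) and fitted by limma-voom (version 3.58.1, under R 4.3.3) over 12 groups, averaged over sexes, with mouse as a random effect, and tested by TREAT against a log2 fold change of 1 at FDR 0.05. Adjusted p-values are Benjamini-Hochberg values over all features. edgeR and DESeq2 were fitted over the same 12 groups without a term for the mouse. The 2 libraries of a mouse come from 1 brain and share its number in the titles; their deviations from group means had a mean correlation of 0.12, against -0.03 between mice. Nothing else states separate cultures or litters, so p-values measure the spread between these mice.

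Arm ratios (hairpins with a median of at least 10 counts of both arms) and correlations (100000 resamples, scipy 1.17.1) used bulk libraries. Named were all members, the marker lists and the 5 features most correlated with miR-1298-5p. The fits were tested on simulated data. Alternatives were other tests (edgeR, DESeq2 1.42.0), scalings, filters, blocks, weights and summed entries, and leaving out each mouse; separate fits of each sex and the test of sex by age were added after seeing the data. RefSeq and GENCODE gave sequences and positions. Matching reads to mature sequences cannot tell a strand from near-identical ones elsewhere.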

Additional observations from a re-analysis of the deposited data

Results flagged for a closer look

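Among 107 combinations of member and group, 7 held a library far from the others of its group. Chance alone gives about 1 in 20 for continuous values. That rate does not cover a single count in a group otherwise at 0, which 4 of the 7 were, so nothing is read from the 7. In bulk cells these were miR-1264-3p in P6 female 5, low at 5.60 CPM (49 counts) with the nearest at 10.7, miR-764-5p in P6 female 2, high at 18.1 CPM (nearest 13.3), and miR-1912-5p in 8W male 4, at 0.945 CPM (4 counts). The other 4 were single counts of miR-1912-5p in microglia in groups otherwise at 0, in P6 male 5 (0.387 CPM), P15 female 3 (0.184), P15 male 4 (0.227) and 8W male 1 (0.193).

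The microglial library of P6 female mouse 6, which entered no comparison, had more of 3 members than any of the 10 P6 microglial libraries compared. It held 2088 counts of miR-1298-5p, or 385 CPM against at most 278, miR-448-3p at 30.4 CPM against at most 18.2, and miR-1264-5p at 15.3 CPM against at most 7.86.

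The change of miR-1912-5p from P6 to 8W was 1.62 ± 0.70 (log2) less negative in microglia than in bulk cells, past the test without a fold change threshold and not with it. Its microglial libraries held at most 3 counts each and none reached the filter's 1 CPM, so the member was in the fit only through early bulk libraries, which favours a smaller change in microglia.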

How the results depend on the processing

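Between P6 and 8W in bulk cells 3 members were called, among them miR-1912-5p, whose fall the filter favoured; 5 were called without the fold change threshold, by edgeR and by DESeq2, 0 in males only, and 2 to 3 with 1 mouse left out. From P15 to 8W in bulk cells 5 (miR-1912-5p included) were called in place of 0 by each of these 3 tests, and from P6 to P15 2 without the threshold and 1, miR-1912-5p, by edgeR. In microglia 3 were called from P6 to 8W by each of the 3 tests, not the same 3 by each, and 1 in females only. From P6 to P15 1 was called without the threshold, 2 by edgeR and 2 by DESeq2, and from P15 to 8W 1 by DESeq2. For the difference between the fractions 1 was called by DESeq2 from P15 to 8W and 1 without the threshold from P6 to 8W. Calls between males and females within an age were 0 under each alternative, and the calls of sex by age are given above. Without the mouse as a block 3 members were called from P6 to 8W in bulk cells, and the block changed no other count; the median microglia minus bulk difference was -3.15 without it and -3.04 with a fixed block.

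Some signs turned. In bulk cells miR-448-5p (0.00) became -0.034 by edgeR, -0.071 by DESeq2, -0.053 with DESeq2 size factors, -0.31 with library size alone, -0.085 with quality weights, -0.13 with entries summed and -0.43 in females only, and -0.051 to 0.14 with 1 mouse left out; males only gave 0.15 for miR-1264-5p and 0.42 for miR-1264-3p. In microglia males only gave 0.21 for miR-1298-5p and 0.97 for miR-1264-3p, and miR-1264-5p (0.36) became -0.095 with library size alone and -0.17 in females only. The arm ratio of mir-1264 became -0.023 in libraries with at least 10 counts of both arms, and ran from -0.057 to 0.093 with 1 mouse left out. The cause of these turns was not tested. Scaling by library size alone moved the median of all features from 0.32 to 0.01 (P6 to 8W, bulk) and the calls from 142 higher and 133 lower to 101 and 177. Counts under 10 limit the microglial minor strands and mir-1912.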
